A study of Brassica napus with 14 samples.

Results

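Seeds of Brassica napus (oilseed rape) at 28 days after fertilization, the stage the labels call MG, were compared with seeds at 35 days, the stage called DS. The stages are read here as mature green and dry seed, and no water content accompanies the values. A gene was considered when its level was at least 1 FPKM in MG or in DS. FPKM is the number of sequenced fragments per kilobase of transcript, scaled to the mapped fragments, so levels can be set side by side between genes. This rule kept 40652 of the 96219 genes in the authors' table. The difference of each gene was taken as DS minus MG on the log2(FPKM + 1) scale, which understates the change of low genes.

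All plants were of the cultivar DH12075, grown in chambers under long days at 22 °C and pollinated by hand, and no genotype or treatment differed between stages. Polyadenylated RNA came from whole seeds, in 3 libraries of MG and 2 of DS. Whole ovules at day 0 (OV) and whole seeds at day 7 (GLOB) and day 10 (HEART), with 3 libraries each, give the earlier levels. Where 5 levels of a gene follow each other, they stand in the order OV, GLOB, HEART, MG and DS. The authors' table holds 1 value per gene and stage. The spread between libraries is therefore unknown, no difference below carries a test, an error or a p-value, and the depth of the libraries is unknown. "Higher" and "lower" mean a difference of at least 1 on the log2(FPKM + 1) scale in the authors' values, and "within the threshold" means a smaller one.

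Late in its development the seed of a plant such as oilseed rape stops filling and loses most of its water. Storage proteins and oil have by then been laid down in the embryo under the transcription factors ABI3, FUS3, LEC1 and LEC2. Abscisic acid (ABA), a hormone, acts through PYR/PYL receptors that inhibit clade A protein phosphatases 2C and so free SnRK2 kinases, which activate transcription factors such as ABI5. Late embryogenesis abundant (LEA) proteins, small heat shock proteins and sugars of the raffinose family are known to protect cells in the dry state, and dry seeds keep stored mRNA for germination. The gene roles given below are known from Arabidopsis, and symbols were attached to the Arabidopsis locus that the table pairs with each gene. The B. napus genes paired with the same locus are called its copies.

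Of the 40652 genes, 9397 were higher in DS (23.1%) and 10532 were lower (25.9%), 49.0% in all. The median difference was 0.01, and the quartiles were -1.04 and 0.92. Large differences were more often downward. At least 2 on the log2 scale separated 6.45% of genes upward and 9.79% downward. A difference of at least 3 was found upward in 701 genes and downward in 1561, and one of at least 5 upward in 82 and downward in 284. At 1000 FPKM or more MG had 135 genes, with 103 lower and 4 higher and a median of -3.07. The 86 genes at that level in DS held 46 higher and 11 lower ones, with a median of 1.24. Both selections use the stage values themselves and are given as a description. In DS 1259 genes with at least 1 FPKM in MG were listed at 0, and in MG 555 genes with at least 1 FPKM in DS were listed at 0. With all copies of a locus summed, 3550 of 15640 loci were higher (22.7%) and 4054 lower (25.9%), 48.6% in all.

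The rule on 1 FPKM left out 55567 genes, of which 36268 were listed at 0 in both stages. Close to it, 747 genes lay at or less than 0.1 FPKM above it in their higher stage and were considered, and 760 lay less than 0.1 FPKM below it and were not. The lowest gene considered had 1.00 FPKM.

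**Figure D1:**
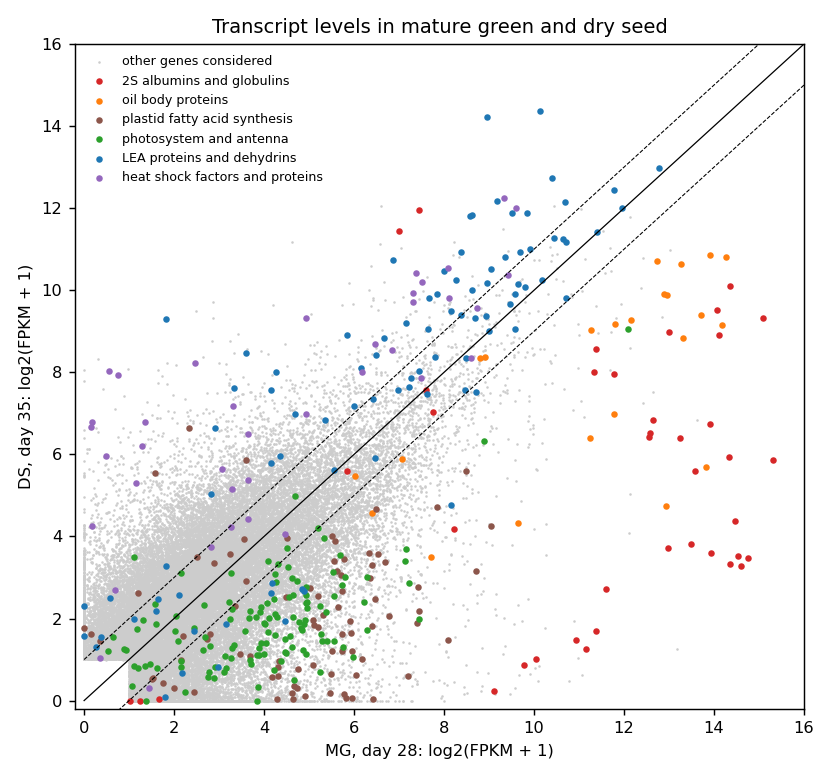
Level of each of the 40652 genes in MG (horizontal axis) and DS (vertical axis), both as log2(FPKM + 1). Points are single genes, coloured for 6 groups, the solid line marks equal levels and the dashed lines a difference of 1. Most storage protein and oil body genes lie below the line at the right, while LEA and heat shock genes lie mostly above it.

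The functions of these genes were described through 35 lists that together hold 487 loci, 447 of them in the table. These loci have 2027 copies, of which 1283 passed the rule on 1 FPKM. Because the lists were chosen with earlier results of these data known, the tally of lists is a description only. The copies that passed had a median difference of 1 or more in 3 lists, of -1 or less in 14, and in between in 18. The 3 lists were heat shock factors and small heat shock proteins (2.41), clade A protein phosphatases 2C (1.1), and LEA proteins and dehydrins (1.05). With the copies of each locus summed first, the median of LEA proteins and dehydrins was 0.92 and that of lipid mobilization, 0.90 over copies, was 1.26. The lowest medians were those of the 2S albumins (-9.26), the cruciferins and vicilin-like globulins (-4.01), plastid fatty acid synthesis (-3.18) and the oil body proteins (-3.06). Counts of copies below can be read against the 23.1% higher and 25.9% lower among all genes considered.

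**Figure D2:**
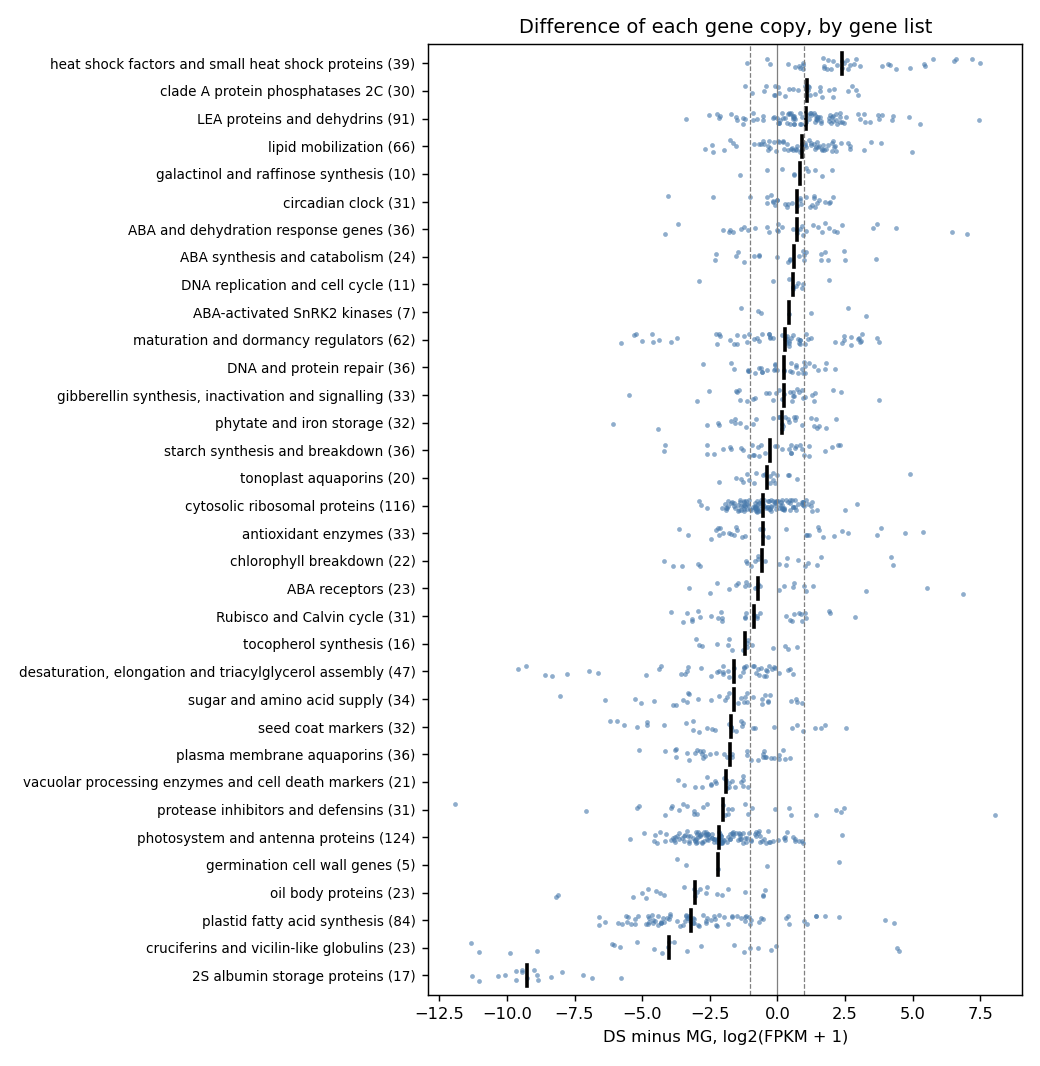
Difference DS minus MG on the log2(FPKM + 1) scale (horizontal axis) for every copy considered in the lists with at least 5 such copies, with the number of copies in parentheses after each list. Points are single gene copies, black bars are list medians, and dashed lines mark -1 and 1. The medians run from -9.26 for the 2S albumins to 2.41 for heat shock factors and small heat shock proteins, and most lists hold copies on both sides of 0.

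Genes of stored reserves were the most abundant transcripts of MG and were lower in DS. All 17 copies of 2S albumin genes that were considered were lower. The 2S albumins, called napins in oilseed rape, are small storage proteins. SESA4 copies summed to 14.0, 15.42, 26.2, 108709 and 832 FPKM from OV to DS. SESA1 stood at 17.1, 31.3, 11.1, 89465 and 226 FPKM, and SESA3 at 5.52, 6.46, 3.18, 48457 and 19.1. At each of these loci the DS level thus lay nearer to that of the ovule than to that of MG. The difference of SESA3 from MG was -11.23. The cruciferins, the main globulins of the seed, were lower as well. CRB went from 51134 FPKM in MG to 274 in DS (-7.54), CRU3 from 40958 to 1296 (-4.98), and CRA1 from 29216 to 1612 (-4.18). Among globulins 18 of 23 copies were lower and 2 were higher. Both higher copies belong to PAP85, which encodes a vicilin-like globulin. PAP85 stood at 0.0875, 0.690, 0.319, 301 and 6723 FPKM from OV to DS, a difference of 4.48, opposite to the cruciferins. CRU4, a further cruciferin, went from 5373 to 7.00 FPKM and VCL1, a vicilin-like globulin, from 12749 to 215. Another vicilin-like locus, AT2G18540, was within the threshold, with 464 FPKM in MG and 365 in DS.

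Oil body proteins coat the droplets of stored oil. Their 23 copies held 20 lower and 0 higher ones. The oleosin gene OLEO1 went from 91892 FPKM in MG to 5412 in DS (-4.09), OLEO4 from 23339 to 1934 (-3.59), OLEO3 from 8071 to 749 (-3.43) and OLEO2 from 19193 to 3408 (-2.49). All of them stayed far above their HEART levels, 43.2 FPKM for OLEO1 and 7.82 for OLEO2. The caleosin CLO1 went from 6813 to 1117 FPKM. The steroleosins, oil body proteins with a dehydrogenase domain, were within the threshold, HSD5 with 918 FPKM in MG and 652 in DS, and the locus AT5G50700 with 2698 and 3758. The latter is not in the list and was named after its value was seen.

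The 2S albumins held 16.3% of the summed FPKM in MG and 0.118% in DS. Oil body proteins held 9.95% and 1.46%, and the globulins 9.68% and 1.22%. LEA proteins and dehydrins moved the other way, from 3.13% in MG to 14.6% in DS, and heat shock factors and small heat shock proteins from 0.313% to 2.40%. Protease inhibitors and defensins went from 2.36% to 0.273%. The 100 highest genes of each stage shared 34 genes. Of the 100 in MG, 79 were lower in DS and 3 were higher, and 14 were 2S albumins, 16 oil body proteins and 14 globulins. Of the 100 in DS, 50 were higher than in MG and 14 lower, and 31 were LEA proteins or dehydrins. Both sets of 100 were picked by the stage values themselves, so their counts of higher and lower genes are a description only. The summed FPKM of all genes was 1511542 in MG and 912604 in DS.

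**Figure D3:**
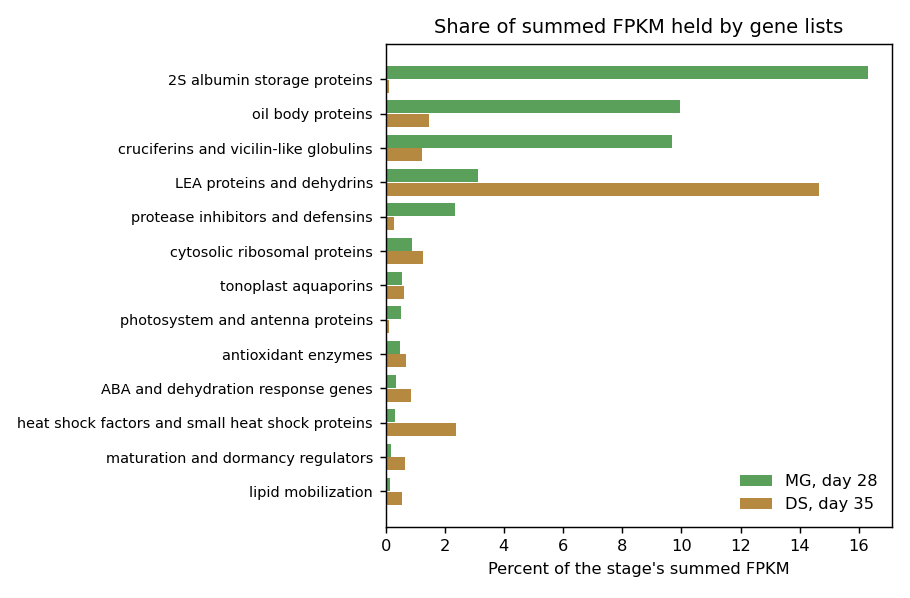
Share of the summed FPKM of each stage, in percent, held by every list that reached 0.5% in MG or DS. Green bars are MG (day 28) and brown bars DS (day 35), from 0. The 2S albumins go from 16.3% to 0.118%, and LEA proteins and dehydrins from 3.13% to 14.6%.

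Genes that make fatty acids in the plastid were lower in DS at most steps. Summed over copies, 16 of 20 loci were lower and 1 was higher. Of 84 copies considered, 68 were lower (81.0%) and 7 higher (8.33%). BCCP2, a biotin carrier subunit of acetyl-CoA carboxylase, stood at 14.6, 31.4, 62.7, 347 and 0.656 FPKM from OV to DS, its lowest stage. Further subunits of this enzyme were lower as well, CAC2 from 154 FPKM in MG to 4.45 in DS and CAC3 from 109 to 5.79. FAB2, a stearoyl-ACP desaturase, went from 1572 to 75.1 FPKM (-4.37) and MOD1, the enoyl-ACP reductase, from 151 to 7.69. Pyruvate enters this pathway through pyruvate kinase and the plastid pyruvate dehydrogenase. The kinase genes PKPB1 (483 to 34.7 FPKM) and PKPA (445 to 44.4) and the dehydrogenase gene PDH-E1A (368 to 21.5) were all lower. FATB, a thioesterase that releases saturated fatty acids, was the higher locus, with 40.6 FPKM in MG and 87.7 in DS (1.09).

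WRI1, the transcription factor that activates these genes, was within the threshold as a sum, with 148 FPKM in MG and 100 in DS, but its copies parted. BnaN07g17720 went from 65.2 to 0.540 FPKM, BnaN16g18240 from 43.0 to 0.130, BnaN18g32750 from 18.7 to 0.750 and BnaN09g39370 from 16.96 to 0.500. The remaining copy, BnaN01g26300, stood at 27.9, 13.7, 11.0, 4.05 and 98.5 FPKM from OV to DS. Its difference was 4.30, against -5.43 to -3.49 for the other copies. FATA1, a thioesterase for oleate, was split as well, with BnaN07g05340 at 53.5 FPKM in MG and 0.122 in DS, BnaN17g09680 at 24.0 and 0.0264, and BnaN16g33480 at 1.99 and 45.6. Its relative FATA2 went from 52.7 to 0.232 FPKM.

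Elongation and desaturation of fatty acids were lower too. FAE1, the condensing enzyme that makes erucic and eicosenoic acids, stood at 0.359, 0.367, 1.34, 1791 and 0.522 FPKM from OV to DS. Its difference of -10.20 followed that of SESA3 among loci at 50 FPKM or more. FAD3, which makes linolenic acid, went from 1405 to 8.02 FPKM (-7.28), and FAD2, which makes linoleic acid, from 406 to 79.3 (-2.34). The other enzymes of the elongation complex, CER10, PAS2 and KCR1, differed by -4.69, -3.86 and -2.74. Enzymes that assemble triacylglycerol differed less. DGAT1, which adds the last fatty acid, was at 125 FPKM in MG and 142 in DS, PDAT1 at 30.4 and 34.5, and DGAT2 at 68.9 and 25.6. In the list of desaturation, elongation and assembly, 29 of 47 copies were lower and 0 higher.

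The supply of sugar and amino acids to the seed showed 23 lower and 0 higher copies of 34. SUS2, a sucrose synthase of filling seeds, went from 535 FPKM in MG to 0.960 in DS (-8.09). SUS3, of the same family, was within the threshold at 301 and 219 FPKM. The sucrose exporters SWEET15 (136 to 1.66 FPKM) and SWEET12 (26.6 to 0.133) were lower, as were the amino acid exporters UMAMIT11 (23.3 to 1.60) and UMAMIT14 (12.7 to a listed 0).

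Genes that break oil down showed the opposite pattern. Of 66 copies of lipid mobilization genes, 32 were higher in DS (48.5%) and 7 lower (10.6%). The glyoxylate cycle turns acetyl-CoA from fatty acids into precursors of sugar. Its malate synthase gene MLS stood at 3.77, 2.71, 8.56, 394 and 1303 FPKM from OV to DS. Isocitrate lyase, ICL, went from 176 to 654 FPKM (1.89), and PCK1, which starts gluconeogenesis, from 337 to 1186 (1.81). All 3 copies of MLS and all 4 copies of ICL and of PCK1 were higher. Among enzymes that activate and oxidize fatty acids in the peroxisome, LACS7 (10.1 to 59.6 FPKM), LACS6 (4.27 to 17.1) and the acyl-CoA oxidase ACX2 (21.3 to 131) were higher. ACX4, for short chains, was within the threshold at 166 and 90.7 FPKM, and CSY2, a peroxisomal citrate synthase, was lower at 32.8 and 14.0. The lipase SDP1, which opens oil breakdown, was at 4.70 FPKM in MG and 9.36 in DS, and its relative SDP1L went from 1.15 to 37.2 (4.15).

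LEA proteins and dehydrins are hydrophilic proteins that build up as seeds dry. Of 91 copies, 47 were higher (51.6%) and 11 lower (12.1%). EM6, a small LEA protein, was the most abundant locus of DS among the lists. It stood at 0.920, 5.65, 3.96, 3836 and 44833 FPKM from OV to DS. Its copies differed widely, since BnaN05g05550 went from 493 to 19155 FPKM and BnaN14g06350 from 1121 to 21270, while BnaN13g23330 went from 1399 to 2473. The related EM1 was within the threshold, at 641 FPKM in MG and 888 in DS. ECP63 (49.6 to 525 FPKM, 3.38), DI21 (583 to 4694, 3.01) and M10 (407 to 4649, 3.51) were also higher, as were LEA4-5 (1879 to 8077) and LEA14 (369 to 1542). RAB18, an ABA-induced dehydrin, was already at 12039 FPKM in MG and reached 22081 in DS, within the threshold (0.88). Of the acidic dehydrins, ERD14 was lower and ERD10 was within the threshold. ERD14 stood at 262, 626, 1146, 107 and 23.9 FPKM from OV to DS. ERD10 was at 136 FPKM in HEART, 15.6 in MG and 9.93 in DS.

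Small heat shock proteins bind unfolding proteins. Of 39 copies in the list of heat shock factors and small heat shock proteins, 29 were higher (74.4%) and 1 was lower. The plastid protein HSP21 stood at 0.0724, 0.792, 8.90, 0.797 and 353 FPKM from OV to DS, the largest rise among loci at 50 FPKM or more (7.62). HSP26.5 (0.514 to 162 FPKM) and the cytosolic HSP18.1 (3.40 to 201) were also low in MG. Other members were abundant in MG already and higher still in DS. HSP17.6II went from 817 to 5364 FPKM, HSP17.6C from 642 to 4831, HSP22 of the endoplasmic reticulum from 869 to 2633 and HSP23.6 of the mitochondrion from 323 to 2203. HSP101, which pulls proteins out of aggregates, went from 212 to 873 FPKM. The lower locus, AT4G21870, went from 2.61 to 0.238 FPKM, and HSFA2, a heat shock factor, was within the threshold (32.3 and 36.2 FPKM).

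A few more lists were drawn up after the values had been seen, and their counts describe what was noticed. In a list of chaperones and their helpers 22 of 27 copies were higher and 0 lower. BAG6 went from 6.46 to 232 FPKM, the immunophilin ROF2 from 12.1 to 194, HOP3, which links HSP70 and HSP90, from 16.98 to 197, and a DnaJ-type protein (AT1G71000) from 13.7 to 738. The most abundant loci of this list, HSP70-4 (885 to 3038 FPKM) and HSP70-5 (957 to 2332), were higher too. In the heat shock factor family 25 of 48 copies were higher and 1 lower. HSFB2A went from 2.43 to 161 FPKM, HSFB2B from 5.93 to 50.6, HSFA4A from 1.56 to 20.6 and HSFA1B from 26.2 to 160. In the family of DREB2 factors, which act in drought and heat, 14 of 27 copies were higher and 2 lower. DREB2A stood at 6.98, 33.4, 58.1, 10.9 and 1368 FPKM from OV to DS (6.84). DREB2G went from 48.3 to 434 FPKM, DREB2B from 5.70 to 114 and DREB2C from 0.477 to 15.3.

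Antioxidant enzymes went both ways, with 13 of 33 copies higher and 15 lower. As sums, 4 of 10 loci were higher, the catalases named here among them, and 4 were lower. Catalases, which remove hydrogen peroxide, were higher. CAT2 stood at 19.8, 17.9, 19.3, 69.0 and 764 FPKM from OV to DS, with all 8 copies higher, and CAT3 went from 206 to 656 and CAT1 from 146 to 427. The lower loci were the superoxide dismutases CSD1, CSD2 and MSD1 and the cytosolic ascorbate peroxidase APX1. CSD1 went from 1222 to 522 FPKM, CSD2 from 336 to 89.4, MSD1 from 502 to 217 and APX1 from 159 to 22.3. PER1, a peroxiredoxin of seeds, was within the threshold at 4459 and 3503 FPKM. Genes of tocopherol (vitamin E) synthesis were lower in 11 of 16 copies and higher in 0, among them VTE2 (48.5 to 4.67 FPKM), VTE3 (74.0 to 9.87) and VTE1 (119 to 28.2). Galactinol synthase opens the synthesis of raffinose sugars. In the list of galactinol and raffinose synthesis, 5 of 10 copies were higher and 1 lower. As sums, 1 of 4 loci was higher, with a median of 0.36 over loci. GOLS1 was the higher locus, at 151 FPKM in MG and 331 in DS, and GOLS2 was within the threshold at 400 and 753.

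Genes of the ABA pathway went in both directions at several steps, as did all genes considered (23.1% higher and 25.9% lower). In the list of ABA synthesis and catabolism 8 of 24 copies were higher (33.3%) and 5 lower (20.8%). In synthesis, ABA1 (zeaxanthin epoxidase) went from 54.7 to 191 FPKM with all 4 copies higher. NCED3, a dioxygenase that cleaves carotenoids to the ABA precursor, went from 8.21 to 0.583, while its relative NCED6 was within the threshold at 31.0 and 49.8. AAO3, the aldehyde oxidase of the last step, was higher as a sum (0.771 to 3.40 FPKM), with neither copy past the threshold. For breakdown, the hydroxylase gene CYP707A2 stood at 0.0216 FPKM in HEART, 3.43 in MG and 50.2 in DS, and its relative CYP707A1 at 24.4, 50.7 and 42.9. Among receptors 9 of 23 copies were lower (39.1%) and 5 higher (21.7%). PYL7 stood at 73.7, 7.69, 9.81, 23.3 and 1265 FPKM from OV to DS. The sum of PYL7 came from BnaN13g33570 (6.24 to 833 FPKM) and BnaN03g27210 (8.44 to 432), while BnaN19g00580 went from 8.59 FPKM to a listed 0. PYL9 was higher too (10.8 to 49.4 FPKM), and PYL5 was lower with all 4 copies (77.9 to 15.8). PYL8 (4.62 to 1.22) and PYL3 (2.04 to a listed 0) were lower as well.

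Phosphatases of clade A, which hold back ABA signalling, were higher in 17 of 30 copies (56.7%) and lower in 1. AHG1, a phosphatase known from seeds, stood at 0.426 FPKM in HEART, 23.3 in MG and 194 in DS. HAI3 went from 12.6 to 67.0 FPKM, ABI2 from 4.79 to 31.2 and HAI2 from 18.7 to 63.7. AHG3 and HAI1 were within the threshold, at 103 and 72.5 FPKM and at 57.1 and 64.8. Of the SnRK2 kinases, SNRK2.3 went from 28.5 to 210 FPKM, SNRK2.2 from 21.9 to 43.0, within the threshold, and SNRK2.6 from 8.04 to 3.28. Among target genes of ABA and dehydration 14 of 36 copies were higher and 9 lower. RD29B went from 288 to 2493 FPKM and the NAC factor ATAF1 from 318 to 1012, and COR15B, a cold-regulated protein of the plastid, from 41.5 to 146. HVA22B was lower, at 2197 FPKM in MG and 768 in DS, as was the low ANAC019 at 1.91 and 0.440, and ADH1, an alcohol dehydrogenase, was within the threshold at 2575 and 2042.

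Of 62 copies of regulators of maturation and dormancy, 17 were higher (27.4%) and 20 lower (32.3%). These shares lie near the 23.1% and 25.9% of all genes considered. As sums, 4 of 16 loci were higher and 5 lower. The activators of filling FUS3, BZIP67 and L1L were among the lower ones. FUS3 was at 7.12 FPKM in HEART, 75.6 in MG and 1.11 in DS, and the bZIP factor BZIP67, which binds reserve genes, at 14.1, 110 and 0.387. L1L, a LEC1-like subunit of the factor NF-Y, went from 123 to 6.70 FPKM. DOG1, the main dormancy gene, stood at 0.655 FPKM in HEART, 567 in MG and 69.2 in DS, with all 5 copies lower. ABI3 went from 146 to 60.2 FPKM (-1.26). Several genes known for their part in germination were higher. ABI5 went from 93.7 to 900 FPKM, and AFP2, which binds ABI5 and promotes its loss, from 75.1 to 322. PIL5, a repressor of germination in darkness, went from 3.03 to 36.1 FPKM. SOM, a zinc finger gene activated by PIL5, stood at 0.318 FPKM in HEART, 454 in MG and 3696 in DS with all 4 copies higher. PHYA, the receptor of far-red light, went from 26.7 to 197 FPKM, while PHYB was at 7.95 and 9.82 and PHYE at 14.7 and 17.78. Of the phytochromes, a list added after the values were seen, 2 of 10 copies were higher and 0 lower.

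Gibberellin is the hormone that opposes ABA in germination. Of 33 copies of its genes, 7 were higher (21.2%) and 8 lower (24.2%), near the 23.1% and 25.9% of all genes considered. The synthesis gene GA20OX3 stood at 36.1 FPKM in HEART, 454 in MG and 9.77 in DS, and KAO1 went from 18.5 to 0.904 and KO from 98.2 to 42.5. The synthesis gene GA20OX1 was higher as a sum, from 2.00 to 9.52 FPKM (1.81), with 1 of 5 copies past the threshold, and so was GA2OX6, of gibberellin inactivation, from 0.254 to 2.04 (1.28). KAO2 was within the threshold at 162 and 138 FPKM. The receptor gene GID1C went from 7.19 to 80.2 FPKM and GID1A from 27.4 to 64.5. The DELLA repressor RGL2 was within the threshold at 26.4 and 49.8 FPKM. Of 4 loci for cell wall enzymes and expansins of germination, EXPA1 was past the threshold as a sum, going from 31.5 to 1.22 FPKM. EXPA8 was at 6.39 and 4.81, with 1 copy higher and 1 lower.

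**Figure D4:**
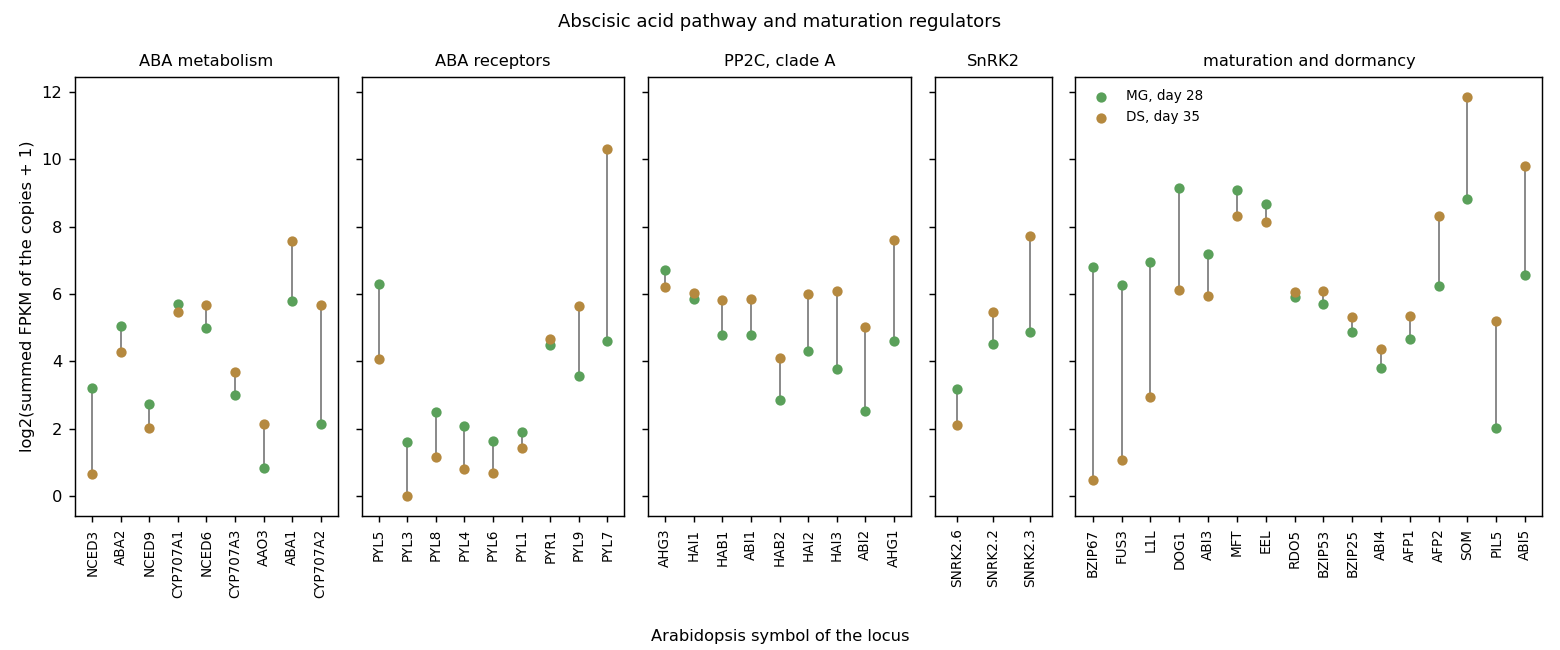
Level in MG (green) and DS (brown) of loci of the ABA pathway and of maturation regulators, as log2 of the summed FPKM of the copies plus 1 (vertical axis). Loci with at least 1 FPKM in either stage are shown, ordered within each group by the difference, and a grey line joins the stages. PYL7 goes from 23.3 to 1265 FPKM and BZIP67 from 110 to 0.387.

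Genes of photosystem and antenna proteins were mostly lower. Of 124 copies of photosystem and antenna proteins, 96 were lower (77.4%) and 1 was higher. LHCA3, an antenna protein of photosystem I, stood at 171, 257, 166, 212 and 10.9 FPKM from OV to DS. PSBR of photosystem II went from 326 to 19.9 FPKM, PSBX from 50.2 to 1.85 and the antenna gene LHCB6 from 233 to 12.99. The locus of LHCB2.3 was the most abundant of the list, at 4367 FPKM in MG and 550 in DS, with 1 of its 5 copies past the threshold, and LHCB1.3 followed at 525 and 132 FPKM. In the list of Rubisco and the Calvin cycle 5 of 31 copies were higher, 15 lower and 11 within the threshold, with a median of -0.87. The small subunit of Rubisco, RBCS1B, went from 653 to 126 FPKM and phosphoribulokinase, PRK, from 82.1 to 5.90. GAPB (75.7 to 6.75 FPKM) and SBPASE (34.2 to 4.53), of the same cycle, were lower. Another small subunit gene, RBCS3B, was higher as a sum (3.37 to 12.2 FPKM, 1.60), and so was Rubisco activase, RCA, at 35.4 and 75.4. In chlorophyll breakdown 6 of 22 copies were higher (27.3%), 7 lower (31.8%) and 9 within the threshold, with a median of -0.57. These shares lie near those of all genes considered. As sums, 2 of 8 loci were higher and 3 lower. SGR2, of the STAY-GREEN family, stood at 7.94 FPKM in HEART, 140 in MG and 2688 in DS with both copies higher, and SGR1 went from 35.8 to 81.9. PAO and RCCR, which act after the removal of magnesium and phytol, were lower (178 to 22.2 and 40.2 to 0.844 FPKM). NYC1, which acts on chlorophyll b, was within the threshold at 65.4 and 105 FPKM, and NOL, of the same step, went from 9.81 to 4.34.

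Starch genes held 11 lower and 6 higher of 36 copies. APS1, a subunit of ADP-glucose pyrophosphorylase that commits carbon to starch, went from 162 to 8.24 FPKM, and the plastid beta-amylase BAM1 from 56.4 to 270. Another beta-amylase, BAM3, was lower (15.73 to 1.66 FPKM), as was the starch synthase GBSS1 (16.1 to 3.46), while the starch synthase SS3 was higher (11.8 to 25.2). Among genes of phytate, the phosphate store of seeds, MIPS1 went from 120 to 0.569 FPKM and IPK1 from 55.7 to 19.0, while ITPK1 went from 28.8 to 93.0. MIPS3 was lower too (3.95 to 0.119), and MIPS2, the most abundant of the list, was within the threshold at 501 and 291. FER2, the ferritin of seeds, went from 218 to 467 FPKM and FER4 from 6.24 to 24.0, and NRAMP3, which exports iron from the vacuole, from 14.6 to 2.54. Plasma membrane aquaporins, the water channels of the cell surface, were lower in 22 of 36 copies and higher in 0. PIP1;4 stood at 592, 162, 119, 322 and 28.3 FPKM from OV to DS. PIP1;1 went from 57.1 to 1.75 FPKM, PIP2;5 from 121 to 10.3 and PIP1;2 from 272 to 133. Of 20 copies of aquaporins of the vacuole membrane, 1 was higher, 6 were lower and 13 within the threshold. The seed channel TIP3;1 was lower as a sum but remained abundant, at 5578 FPKM in MG and 2240 in DS. TIP3;2, another seed channel, was within the threshold at 2957 and 3413. TIP1;1, a vacuole channel of growing tissue, went from 10.2 to 49.5 FPKM, with 1 copy higher and 1 lower.

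In the list of protease inhibitors and defensins 22 of 31 copies were lower and 5 higher. The list does not hold every such gene. The defensin-like locus AT1G19610, outside it, was higher (3.02 to 398 FPKM). The Kunitz-type inhibitor locus AT1G73260 stood at 12.7, 215, 154, 9297 and 8.10 FPKM from OV to DS, a difference of -10.00. The defensins PDF2.2 (10023 to 184 FPKM), PDF1.1 (7323 to 648) and PDF1.2B (8863 to 1243) were lower. AT2G38870, of the potato type I inhibitors, was higher as a sum at 83.0 and 343 FPKM, with 2 copies higher and 1 lower. Of its level in DS, 267 FPKM came from the copy BnaN04g25330. The defensin PDF1.3 (AT2G26010) was listed at 0 in MG and at 1.69 in DS. Lipid transfer proteins, another added list, had 11 lower and 0 higher of 14 copies, with LTP2 at 12697 FPKM in MG and 122 in DS, LTP1 at 2212 and 126 and LTP5 at 91.9 and 2.56. All 21 copies of vacuolar processing enzymes and cell death markers were lower. VPEB, which processes storage proteins in seeds, went from 1546 to 254 FPKM. VPED, of the seed coat, had its highest level in GLOB (2750 FPKM) and was at 5.09 in MG and 0.470 in DS. VPEG went from 37.4 to 9.68 FPKM and VPEA from 10.2 to 0.0671, and the nuclease genes RNS3 and BFN1 went from 13.3 to 0.104 and from 8.81 to a listed 0.

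A whole seed contains embryo, endosperm and seed coat, and in such bulk samples fewer cells of a type cannot be told apart from less RNA per cell. Seed coat markers were lower in 22 of 32 copies and higher in 4, and their summed level was 779 FPKM in MG and 253 in DS. BAN, of proanthocyanidin synthesis, was at 106 FPKM in MG and 0.0780 in DS, after 185 in GLOB and 248 in HEART. LDOX went from 185 to 2.91 FPKM and DFR from 179 to 12.1, TT10 was at 17.3 in MG and under 1 FPKM in DS, and TT12, TT8, TT2 and TT1 were listed at 0 in DS. PMEI6, a marker of mucilage cells, was higher at 11.3 and 37.0 FPKM, and SBT1.7 was within the threshold at 238 and 178. Of 60 copies of endosperm markers 1 was considered, from AGL62. The copies of AGL62 summed to 5.36 FPKM in MG and were listed at 0 in DS. ZOU, of the same list, was under 1 FPKM in both stages. The markers of the maturing embryo, 2S albumins and oleosins, were above their HEART levels in both stages at every locus named above. The part of seed coat and endosperm in the lower levels of cell death, sugar supply and defence genes was not tested.

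Of 116 copies of cytosolic ribosomal proteins, 34 were lower, 9 higher and 73 within the threshold, with a median of -0.52 that turns to 0.17 when both stages are set to a common sum. RPL4A was higher (517 and 1114 FPKM) and RPL38B (694 and 175), RPL23AB (188 and 50.1) and RPL24B (1289 and 553) lower. The most abundant, RPSAA (1889 and 1280) and RPS6B (1370 and 1289), were within the threshold. Of DNA replication and cell cycle genes 1 of 11 copies was higher and 1 lower. As sums, CYCB1;1 (1.12 to 5.78 FPKM) and MCM4 (1.67 to 4.41) were higher, MCM6 (7.52 to 0.235) and MCM7 (1.53 to 0.141) lower, and PCNA1 was at 18.7 and 20.4. Genes of DNA and protein repair had 8 higher, 6 lower and 22 within, and as sums 4 loci were higher and 3 lower. PARP3, a poly(ADP-ribose) polymerase of seeds, stood at 0.856 FPKM in HEART, 1032 in MG and 2311 in DS, and LIG4 and LIG6, DNA ligases, went from 4.17 to 13.6 and from 2.01 to 6.14. FPG1, of base excision repair, went from 9.02 to 23.7. The lower loci were PARP2 (1.65 to 0.0697 FPKM, -1.31), the kinase gene ATM (43.1 to 16.9, -1.30), with 2 copies higher and 2 lower, and PIMT1 (41.6 to 20.02, -1.02). PIMT2, which like PIMT1 repairs aged proteins, was within the threshold at 328 and 608 FPKM. Clock genes had 12 higher and 2 lower of 31 copies. ELF4 (105 to 30.2 FPKM) and, at low levels, LHY (2.77 to 0.793, -1.07) were lower as sums, and PRR7, PRR9 and ELF3 were higher (24.4 to 70.9, 23.1 to 58.7 and 12.8 to 35.1). The labels give no hour of harvest. Of the autophagy gene family ATG8, in an added list, 15 of 22 copies were lower and 3 higher. ATG8H went from 103 to 15.3 FPKM, ATG8I from 259 to 95.2 and ATG8F from 170 to 70.4, and ATG8E from 12.4 to 39.0. Polyubiquitin genes, also an added list, had 7 higher and 4 lower of 20 copies, with UBQ10 at 4104 and 3906 FPKM and UBQ14 at 2226 and 1111. The added list of low energy response genes had 5 higher and 9 lower of 18 copies, with a median of -0.83. SEN1 went from 2.76 to 55.5 FPKM, the proline dehydrogenase PRODH1 from 212 to 40.8 and BCAT2 from 14.6 to 1.103, and ASN1 was at 172 and 183.

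The loci with the largest differences in summed FPKM were also read without regard to the lists, a choice made after the values were seen. Of 3800 loci at 50 FPKM or more in MG or DS, 1064 were higher and 1204 lower. Several of the 40 largest rises are named here. ABR1 (AT5G64750), an ERF factor, went from 3.90 to 258 FPKM with all 5 copies higher, WRKY33 (AT2G38470) from 3.26 to 107 with all 6, WRKY15 (AT2G23320) from 7.21 to 225 and the bZIP factor BZIP1, of the low energy list, from 1.49 to 133. A thaumatin-like protein (AT4G36010) went from 4.22 to 619 FPKM. Sugar transferase genes among these loci include UGT74F2 (AT2G43820) at 2.08 and 157 FPKM, UGT72D1 (AT2G18570) at 9.21 and 449 and UGT85A5 (AT1G22370) at 0.0459 and 70.6. The drought-induced linker histone HIS1-3 (AT2G18050) stood at 42.6, 14.2, 9.99, 25.6 and 746 FPKM from OV to DS. KMD4 (AT3G59940) and KMD1 (AT1G80440), F-box proteins, went from 9.02 to 258 and from 0.788 to 62.6 FPKM. The clock-related LNK3 (AT3G12320) went from 5.55 to 190.

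The 40 largest falls held, outside the reserves, the GDSL-type lipase loci AT1G54020 (3883 to 3.19 FPKM) and AT3G09930 (848 to 0.236). CCoAOMT1 (AT4G34050) and OMT1 (AT5G54160), methyltransferases that act in lignin synthesis, went from 548 to 2.36 FPKM and from 420 to 1.76. AGL15 (AT5G13790), a MADS factor of embryos, stood at 12.8, 9.75, 39.8, 189 and 0.365 FPKM from OV to DS, and PEI1 (AT5G07500), an embryo zinc finger gene, went from 359 to 0.823. PDF1 (AT2G42840), a gene of the outer cell layer, went from 216 to 0.436 FPKM. A CYP51 sterol demethylase (AT1G11680) went from 524 to 1.81, an ACC oxidase of ethylene synthesis (AT1G12010) from 179 to 0.276, and PSK3 (AT3G44735), a precursor of the peptide hormone phytosulfokine, from 1111 to 2.81. The response regulator ARR22 (AT3G04280) stood at 198 FPKM in HEART and 248 in MG and was listed at 0 in DS.

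Abundant loci outside the lists moved in both directions. AT1G04560, of the AWPM-19 membrane proteins, was within the threshold at 8655 FPKM in MG and 10417 in DS. TCTP (AT3G16640), a growth-related protein, went from 3334 to 6689 FPKM. PAB2 (AT4G34110), which binds the poly(A) tail of mRNA, went from 1093 to 2189, and ECT2 (AT3G13460), which reads methylated adenosine in mRNA, from 290 to 1881 with 4 of 7 copies higher and 0 lower. The cyclophilin ROC1 (AT4G38740) was lower, from 9508 to 1870 FPKM, as were the metallothioneins MT2A (AT3G09390, 5245 to 1064) and MT2B (AT5G02380, 4307 to 824).

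The single genes with the largest differences came mostly from loci named above. The largest fall was BnaN19g19610 on chromosome 19, of AT1G73260, with 1.38, 1.196, 0.727, 9193 and 1.39 FPKM from OV to DS. CRB copies BnaN15g02040 (24872 to 8.68 FPKM) and BnaN10g02050 (23696 to 10.5) and SESA3 copies BnaN17g47970 (27518 to 10.0) and BnaN03g49400 (20939 to 9.09) followed. In the ovule these 4 genes stood at 2.83, 3.92, 3.06 and 2.46 FPKM, so that their DS levels lay nearer to those of the ovule than to those of MG. The largest rise was BnaN04g25330 on chromosome 4, of AT2G38870, listed at 0 in the other 4 stages and at 267 FPKM in DS. HSP17.6II copy BnaN02g04090 went from 0.469 to 261 FPKM and M10 copy BnaN04g26880 from 2.53 to 623. BnaN08g24820, of the defensin-like locus AT1G19610, went from 0.975 to 271 FPKM. How reads of near-identical copies were divided is not stated, which makes the level of any 1 copy uncertain. The polyubiquitin copy BnaN09g22270 was second among the rises, from 8.59e-05 to 219 FPKM, while the copies of its locus UBQ11 summed to 2326 FPKM in MG and 1113 in DS.

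Of 12134 loci with at least 2 copies considered, 1226 had all copies higher, 1647 all lower and 3426 none past the threshold. In 706 loci (5.82%) at least 1 copy was higher and at least 1 lower, as in WRI1, FATA1 and PYL7.

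Most higher genes had their peak in DS, a share partly fixed by the rule that selects them. A higher gene cannot peak in MG and a lower gene cannot peak in DS. Selecting genes by their DS level also bears on where DS stands against HEART. The shares of peaks and the counts against HEART that follow are therefore given as a description, without the same counts over all genes considered. Of 9397 higher genes, 8193 (87.2%) had their highest value of the 5 stages in DS, and 6736 were at least 1 above HEART on the log2(FPKM + 1) scale. A level below 1 FPKM in all 4 earlier stages was found in 1275 of them. Of the 10532 lower genes, 5616 (53.3%) had their highest value in MG. In DS 6194 of these lower genes were at least 1 below their HEART level as well, 3701 were within 1 of it and 637 were still above it. Oleosins and cruciferins are among those still above HEART, and BCCP2, BAN and LHCA3 among those below it.

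**Figure D5:**
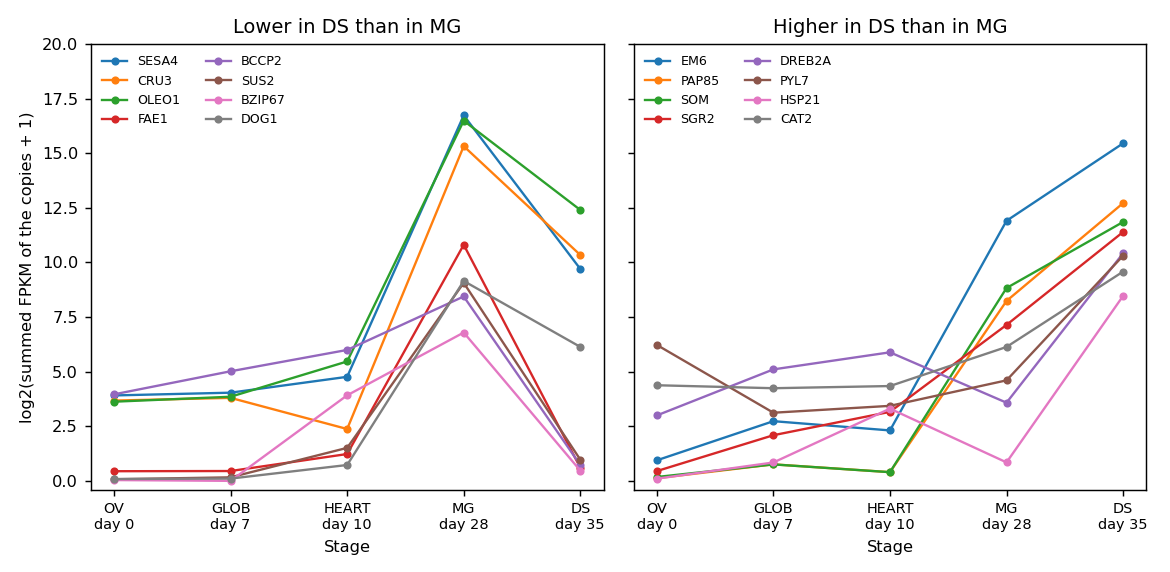
Levels over the 5 stages (horizontal axis) of 8 loci lower in DS than in MG (left) and 8 loci higher (right), as log2 of the summed FPKM of the copies plus 1 (vertical axis). Each line is 1 locus. On the left the levels peak in MG, and on the right DREB2A goes from 10.9 FPKM in MG to 1368 in DS and PYL7 from 23.3 to 1265.

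Genes without an Arabidopsis locus were higher more often than genes with one. Of 829 such genes considered, 357 were higher (43.1%) and 182 lower (22.0%), against 22.7% and 26.0% of genes with a locus, a difference in shares that was not tested. The highest of them in DS was BnaN14g02210 on chromosome 14, at 0.180 FPKM in HEART, 95.2 in MG and 4222 in DS, with BnaN13g23980 next (23.7 to 2306). The files used here annotate neither.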

How the data were processed

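Polyadenylated RNA of whole ovules and seeds was sequenced in 14 libraries, as single-end reads of 100 bases, per the labels' protocols. Per the series' design text, reads were trimmed with Trimmomatic 0.36, aligned with HiSat2 to the DH12075 genome and quantified with Cuffquant and Cuffdiff. The submitters' processing notes list TopHat2 and Cuffnorm, and which aligner gave the deposited values is not settled by these sources. The authors deposited FPKM values, 1 per gene and stage. The annotation version and the way replicate libraries were combined are not given in the sources used here. The table pairs genes with Arabidopsis loci. Another 2 of its columns match no sample described here and were not used.

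Differences between DS and MG were taken on the log2(FPKM + 1) scale, a pseudocount of 1, for genes with at least 1 FPKM in either stage. FPKM is relative to the mapped fragments and per length, so a stage with a few very abundant transcripts can leave less for others. A gene or locus was called at a difference of 1 or more. No test was possible with 1 value a stage, and the design is descriptive. Loci were summed over copies, and the difference taken on the sum. The members and lists were chosen with earlier results of these data known, and 8 lists and the ranking of loci by summed FPKM were added after the values were seen. The rule for named genes takes the 10 largest rises and falls of genes with a locus at 10 FPKM or more, the 10 highest genes of each stage, and, per list, the 2 highest loci and the 3 largest rises and falls of 1 or more. Of the single genes, only some are named one by one. Other members named in the text were chosen after their values were seen, for their place in the pathway. Symbols come from general knowledge of Arabidopsis nomenclature. Calculations used Python 3.11.15 with pandas 2.3.3 and numpy 2.4.6, and figures matplotlib 3.10.9. The scripts that count genes were run on simulated data with known differences.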

Additional observations from a re-analysis of the deposited data

How the results depend on the processing

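The split of higher and lower genes depends on scaling. With both stages set to a common sum, 15699 genes were higher and 6675 lower (9397 and 10532 as deposited), and the median of all genes moved from 0.01 to 0.60. Relative to that median, 8829 were higher and 11139 lower. The median moved to 0.18 with a common sum outside the 100 highest genes, and the medians of ratios and quantile normalization moved it by less than 0.1. At a difference of at least 2, 2624 genes were higher and 3980 lower, 6604 in all. Lists with a median of 1 or more numbered 3 as deposited, 5 with a pseudocount of 0.1, with at least 5 FPKM, with a common sum outside the 100 highest genes and with quantile normalization, 10 on a common sum and 1 with no filter. Those at -1 or less went from 14 to 7 with no filter, which adds genes near 0. List medians under 1 in size that changed sign on a common sum were antioxidant enzymes (-0.55 to 0.17), ribosomal proteins (-0.52 to 0.17), tonoplast aquaporins (-0.37 to 0.20) and starch (-0.27 to 0.29). With copies summed first, gibberellin went from 0.24 to -0.06, phytate from 0.17 to -0.32, polyubiquitin from 0.04 to -0.54 and low energy response from -0.83 to 0.09. At 5 FPKM, ABA receptors went from -0.71 to 0.06 and DNA replication from 0.59 to -0.17. Of 299 loci of the lists with a difference of 1 or more, 0 changed direction under the alternatives other than no filter, and 35 came under 1 in at least 1 of them. Lower genes at least 1 below HEART numbered 4124 at 5 FPKM (6194 as deposited), since fewer genes are considered. Loci with copies in both directions numbered 1107 with a pseudocount of 0.1 and 340 at 5 FPKM (706 as deposited). Without the 10 highest genes of the stage, the 2S albumins held 6.36% of MG, the globulins 6.12% and LEA proteins 7.68% of DS. Replicates were not modelled. No paired analysis was possible because values of single libraries are not part of the table, and leaving out single libraries was not run for the same reason. Low values near 1 FPKM are the least certain, since the depth is unknown.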
